A study of Mus musculus with 17 samples.

Results

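Splicing regulators of the SR, hnRNP, CELF, Rbfox, Nova, Ptbp and Srrm4 families were followed in ribosome-bound RNA of cortical neurons during experimental autoimmune encephalomyelitis (EAE), the mouse model of multiple sclerosis. The members were the protein-coding rows whose symbol begins with Srsf, Hnrnp or Celf, together with Rbfox1, Rbfox2, Rbfox3, Nova1, Nova2, Ptbp1, Ptbp2 and Srrm4. The rule found 45 of the 39017 rows of the count table, and 2 further rows with a member name were left out because they were not protein-coding. The 11 Srsf genes, 20 Hnrnp genes and Ptbp1 were grouped as 32 general factors, and the 3 Rbfox, 2 Nova and 6 Celf genes, Ptbp2 and Srrm4 as 13 neuronal factors. Many tissues also express Rbfox2, Celf1 and Celf2, so a narrow list of 10 neuronal factors without them was counted as well. The mice were NSE-Cre:RiboTag animals on the C57BL/6J background, in which Cre driven by the neuron-specific enolase promoter (the rNSEII-Cre line) puts an HA tag on the ribosomal protein Rpl22. All 4 groups carried both alleles, with Cre passed on by the mother. The 5 male EAE and 4 female EAE mice were adults immunized with a peptide of myelin oligodendrocyte glycoprotein in complete Freund's adjuvant and given pertussis toxin. The 4 male control and 4 female control mice were healthy. Ribosomes of the cortex were pulled down with the HA tag in the chronic stage, and 1 library was read per mouse.

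Pre-mRNA splicing joins exons, and RNA-binding regulators decide which optional exons are kept. SR proteins, encoded by the Srsf genes, mostly bind exons and promote their inclusion, whereas many hnRNPs bind introns or exons and repress it, and both families work in nearly every cell. Neurons add regulators of their own: Rbfox, Nova and CELF proteins select neuronal exons, Srrm4 activates microexons, and the replacement of Ptbp1 by its paralogue Ptbp2 during differentiation releases exons that Ptbp1 represses elsewhere.

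Total counts ranged from 70613567 to 76768267 in male EAE, 85800542 to 98433383 in male control, 66155142 to 86691316 in female EAE and 83664876 to 92822398 in female control libraries. Levels are given as CPM, counts scaled to the library size after TMM normalization, and were divided by exon length (kb) to compare genes. Exon length merged all annotated exons of a gene, which can be longer than a single transcript. All 12 neuron markers listed were detected, and their summed level was 11916 to 13424 CPM in male EAE and 10985 to 12122 CPM in male control mice. RNA of glia was also present, since 12 astrocyte markers summed to 5570 to 6715 CPM in male EAE and 7374 to 10105 CPM in male control mice, without overlap. The 12 oligodendrocyte markers summed to 7107 to 8682 CPM in male EAE and 7248 to 7949 CPM in male control mice, with overlap. The first principal component of 13558 genes held 63.5% of the variance, and male control 4 (-59.9) and female control 2 (-46.5) lay farthest out on it. In such pull-downs, fewer cells of a type, less RNA per cell and less carry-over of RNA of other cells cannot be told apart.

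All 45 members passed the filter on low counts, with mean log2 CPM between 3.05 and 10.23. Per kb of exon, Rbfox3 was the most abundant neuronal factor, with 167 ± 22.2 CPM per kb in male EAE and 249 ± 28.6 CPM per kb in male control mice (SD, n = 5 and 4). Rbfox1 followed with 142 ± 5.84 CPM per kb in male EAE and 132 ± 5.44 CPM per kb in male control mice. Thus the mean of Rbfox3 stood above that of Rbfox1 in male control and in male EAE mice. Rbfox3 and Rbfox1 were read in the same libraries, so their SDs between mice do not test this order. Celf4 and Celf5 had 92.5 and 66.3 CPM per kb in male EAE and 104 and 55.0 CPM per kb in male control mice. Nova2 was above Nova1, with 43.9 against 11.1 CPM per kb in male EAE mice. Celf6, Ptbp2 and Srrm4 were the least abundant neuronal factors, at 6.18, 6.31 and 6.27 CPM per kb in male EAE mice. Among the general factors Hnrnpa0 was highest (139.5 ± 7.95 CPM per kb in male EAE and 146 ± 8.18 CPM per kb in male control mice) and Hnrnpr lowest (1.44 and 1.35 CPM per kb). Ptbp1 was near the bottom of the general factors, with 2.88 ± 0.372 CPM per kb in male EAE and 4.52 ± 0.960 CPM per kb in male control mice.

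**Figure D1:**
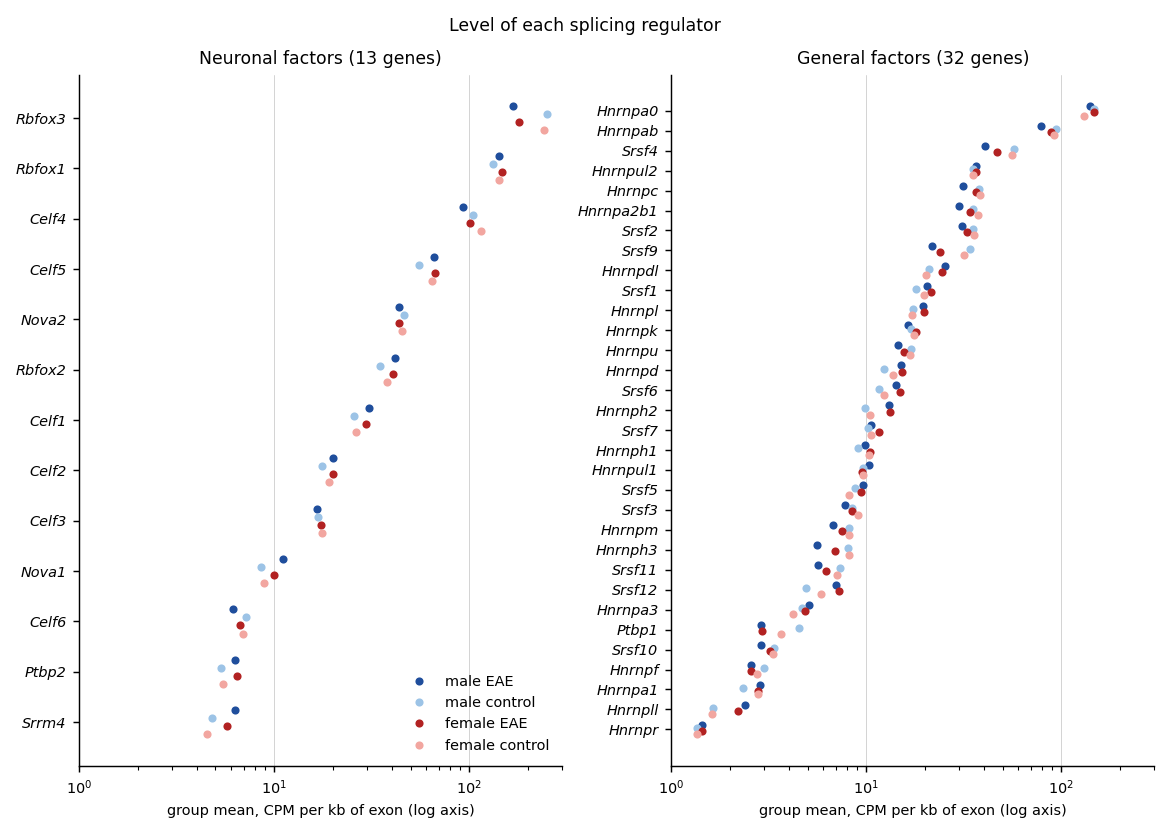
Mean level of each of the 13 neuronal and 32 general factors, in CPM per kb of exon on a log axis; each point is the mean of 1 group (5 male EAE mice, 4 mice in each other group). Levels span Rbfox3, at 167 CPM per kb in male EAE and 249 CPM per kb in male control mice, down to Hnrnpr at 1.44 and 1.35 CPM per kb. Exon length merged all annotated exons of a gene, 22199 bases for Hnrnpr, which places it lowest.

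In male mice, 19 of the 45 splicing regulators were called differentially expressed by edgeR's quasi-likelihood test, 11 higher and 8 lower in EAE than in control. A call required a Benjamini-Hochberg false discovery rate (FDR) under 0.1 and a log2 fold change beyond 0.25 in either direction. Of all 22242 genes tested, 39.6% were called in males, 19.2% higher and 20.4% lower, and of those with a mean log2 CPM above 1, as all members have, 53.6% were. The members' share of 42.2% lay between these backgrounds. At an unadjusted p under 0.05 there were 27 of the 45 members, against 44.1% of all genes. Of the 13558 genes with a mean log2 CPM above 1, 8111 were under it. The groups did not overlap for 9 members that were higher in EAE and 5 that were lower, against 10.1% and 14.3% of all genes (24.4% in either direction, and 34.3% of those with a mean log2 CPM above 1). The median log2 fold change of the members was 0.05, beside 0.02 over all genes. An offset for gene length gave 6 members higher and 14 lower, beside 36.7% of all genes called. An offset for GC content gave 6 higher and 12 lower, beside 38.4%. Each shared 12 calls with the fit without an offset. With male control 4 left out there were 8 higher and 4 lower, and the share of all genes called fell from 39.6% to 26.3%. A model with 1 surrogate variable called 0 of 45 members (4 at an unadjusted p under 0.05) and 9 of all genes.

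**Figure D2:**
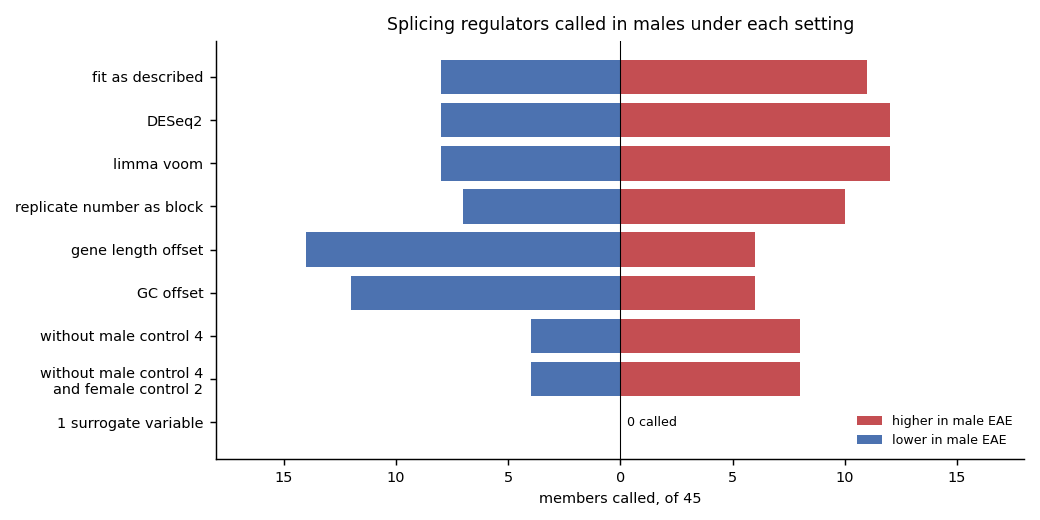
Number of the 45 splicing regulators called higher (right) and lower (left) in male EAE than in male control mice under 9 settings. The fit as described gave 11 higher and 8 lower. The offsets for gene length and GC content turned the balance to 6 higher with 14 and 12 lower, and 1 surrogate variable left 0. Of all genes, 39.6% were called in the fit as described, 36.7% and 38.4% with the offsets and 26.3% without male control 4.

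Of the 13 neuronal factors, 5 were called higher (Srrm4, Nova1, Celf5, Rbfox2 and Celf1) and 1 lower (Rbfox3), with a median log2 fold change of 0.19. These shares of 38.5% and 7.69% stand beside 24.5% higher and 29.1% lower over all genes with a mean log2 CPM above 1. The general factors were called in both directions, 6 of 32 higher and 7 lower, with a median of -0.01. The 19 general factors not called in males lay between -0.26 (Hnrnpc) and 0.29 (Hnrnpa1) on the log2 scale. Both counts were read without a test of the lists. In the narrow list 3 of 10 were higher, close to the share over all those genes, and 1 lower, with a median of 0.04. With the gene length offset 0 neuronal factors were called higher and 3 lower, and with the GC offset 3 were called higher and 1 lower. The count of neuronal factors called higher was 2 without male EAE 4, 3 without male EAE 5 and 2 without male control 4. The count called lower was 2 without male EAE 1, male EAE 3 or male control 2.

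**Figure D3:**
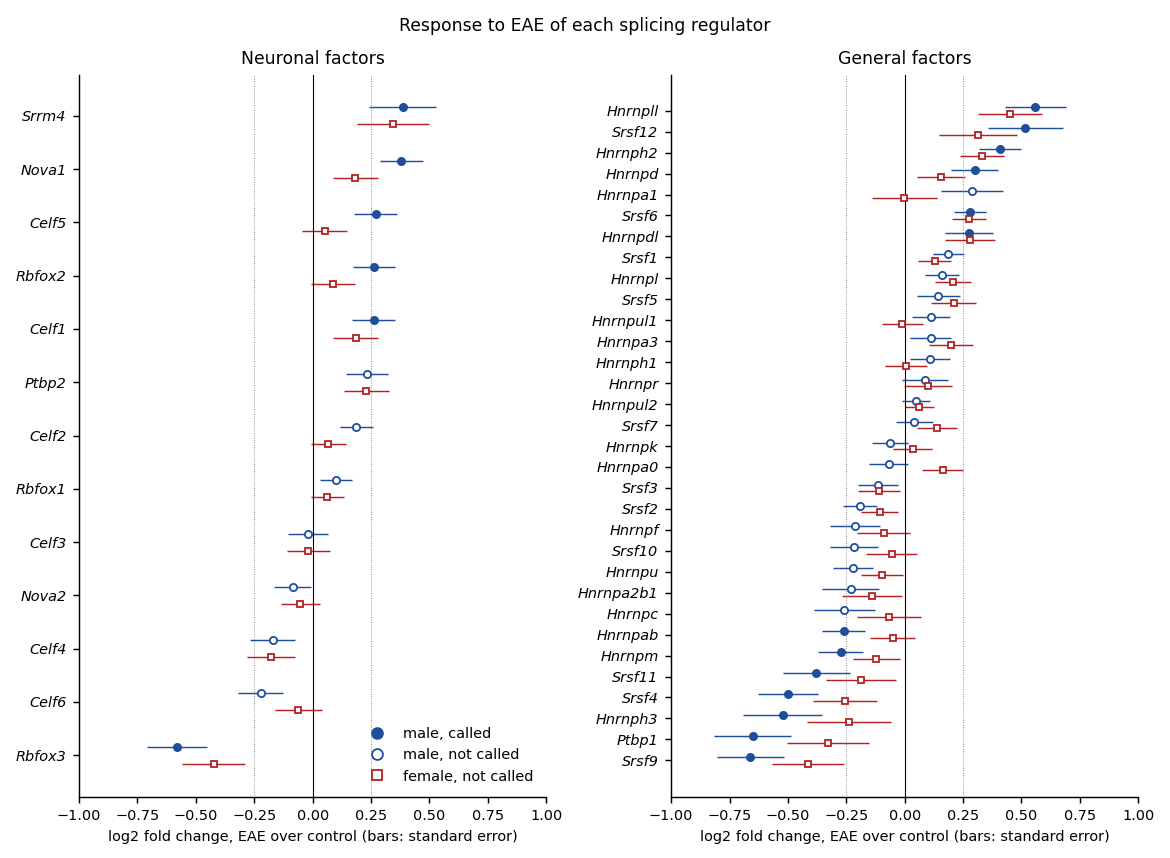
Log2 fold change of EAE over control for each splicing regulator in males (circles) and females (squares), with standard errors; filled symbols passed the FDR of 0.1 and the fold threshold, drawn as dotted lines at 0.25 on either side. In males Hnrnpll (0.56) and Srrm4 (0.38) had the highest values of the general and neuronal factors and Srsf9 (-0.66) and Rbfox3 (-0.58) the lowest, and no female symbol is filled.

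Rbfox proteins bind the same RNA motif next to alternative exons. Rbfox3 (ENSMUSG00000025576, chr11:118489762-118911597, minus strand, GRCm38), which encodes the neuronal marker NeuN, had 1027, 881, 1161, 943 and 836 CPM in male EAE mice, against 1465, 1270.0, 1399 and 1668 CPM in male control mice. Every male EAE library lay below every male control library, and Rbfox3 fell by 0.58 on the log2 scale in males (SE 0.13, edgeR adjusted p = 0.00543). Rbfox2 (ENSMUSG00000033565), the family member found in many tissues, had 339, 334, 319.6, 345 and 366 CPM in male EAE mice, against 274, 313, 287 and 262 CPM in male control mice. It was higher in all 5 male EAE libraries than in any male control library, with a log2 fold change of 0.26 ± 0.09 SE and an edgeR adjusted p of 0.0324. Without male control 4 Rbfox2 was no longer called, and with the gene length offset it was not called either. Rbfox1 (ENSMUSG00000008658) had 585 to 646 CPM in male EAE mice and 557 to 611 CPM in male control mice and was not called (0.10 ± 0.07 SE, edgeR adjusted p = 0.274). The log2 ratio of Rbfox2 to Rbfox3 CPM was -1.86 to -1.19 in male EAE and -2.67 to -2.02 in male control mice. The ratio of Rbfox1 to Rbfox3 was -0.99 to -0.45 in male EAE and -1.45 to -1.19 in male control mice. Neither ratio overlapped between male EAE and male control mice. In females the ratio of Rbfox1 to Rbfox3 did not overlap either, at -0.902 to -0.29 in EAE and -1.41 to -0.927 in control mice. That of Rbfox2 to Rbfox3 overlapped in females, at -2.003 to -1.01 in EAE and -2.48 to -1.86 in control mice. The CPM of Rbfox3 alone did not overlap in either sex, and whether the ratios add to it was not tested. Rbfox3 is on the neuron marker list, of which Nefl, Gad1, Syt1, Tbr1 and Gad2 were called higher in males and only Rbfox3 lower.

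Nova1 and Nova2 are KH-domain proteins that regulate exons of synaptic genes. Nova1 (ENSMUSG00000021047, chr12:46694517-46818929, minus strand) had 101, 99.9, 84.6, 106 and 94.5 CPM in male EAE mice, against 77.5, 82.8, 71.9 and 66.4 CPM in male control mice. The groups did not overlap, and Nova1 rose by a log2 fold change of 0.38 ± 0.09 SE, with an edgeR adjusted p of 0.00665. Nova2 (ENSMUSG00000030411) had 377, 351, 375, 387 and 346 CPM in male EAE mice, against 375, 383, 408 and 393 CPM in male control mice. These groups overlapped, and the log2 fold change of -0.09 ± 0.08 SE was not called (edgeR adjusted p = 0.424). Nova1 was called in each of the 17 fits that left out 1 library but in neither the gene length nor the GC offset fit.

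Srrm4, the activator of neuronal microexons (ENSMUSG00000063919), had 54.0, 54.3, 48.2, 62.0 and 53.6 CPM in male EAE mice, against 40.4, 49.9986, 47.4 and 28.9 CPM in male control mice. The groups overlapped by male EAE 3 and male control 2, and the log2 fold change was 0.38 ± 0.15 SE (edgeR adjusted p = 0.0479). The lowest value was that of male control 4, and without that library Srrm4 was not called.

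The 6 CELF proteins bind GU-rich RNA, and Celf3 to Celf6 are mostly neural. Celf5 (ENSMUSG00000034818) had 447, 423, 420.3, 481 and 439 CPM in male EAE mice, against 372, 375, 402 and 318 CPM in male control mice. It was higher in every male EAE library, with a log2 fold change of 0.27 ± 0.09 SE (edgeR adjusted p = 0.0306). Celf1 (ENSMUSG00000005506), found in most tissues, had 247, 278, 217, 274 and 279 CPM in male EAE mice, against 212, 237, 212 and 204 CPM in male control mice. Male EAE 3 lay among the controls, and the log2 fold change was 0.26 ± 0.09 SE (edgeR adjusted p = 0.0349). Celf2 passed the FDR but not the fold threshold, at 0.19 ± 0.07 SE (edgeR adjusted p = 0.0488). Celf6 did the same, at -0.22 (edgeR adjusted p = 0.0838), and was called in 3 of the 17 fits that left out 1 library. Celf3 (-0.02) and Celf4 (-0.17) were not called, and Celf3 ranged over 84.0 to 98.9 CPM in male EAE mice and 86.3 to 101 CPM in male control mice. With 3 of the 6 values positive and 3 negative, the family had no common direction. The sign of Celf2 was turned by the gene length offset, and that of Celf3, whose value was near 0, by the GC offset.

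**Figure D4:**
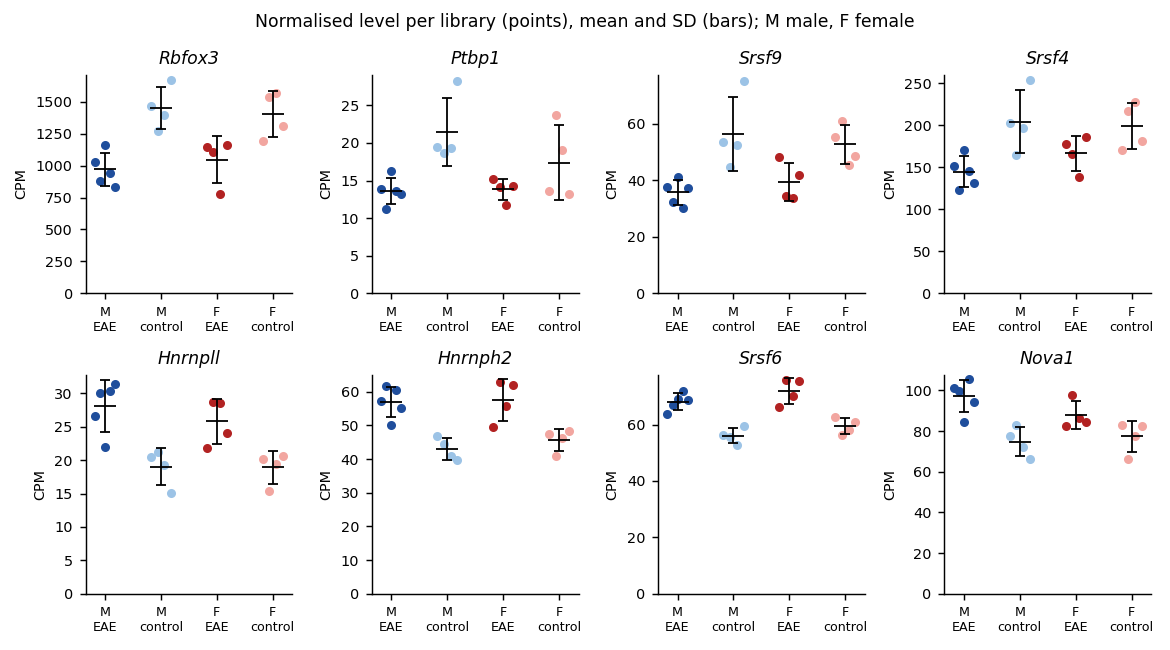
Normalised level (CPM) of 8 splicing regulators in each library, with mean and SD, for male EAE, male control, female EAE and female control mice. Rbfox3, Ptbp1 and Srsf9 were lower and Hnrnpll, Hnrnph2, Srsf6 and Nova1 higher in all male EAE than in all male control mice, whereas Srsf4 overlapped (male EAE 3 and male control 2).

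Ptbp1 (ENSMUSG00000006498, chr10:79854427-79864771, plus strand), the repressor of neuronal exons in other cell types, had 13.9, 11.3, 16.2, 13.6 and 13.3 CPM in male EAE mice, against 19.5, 18.7, 19.3 and 28.2 CPM in male control mice. Every male EAE library was below every male control library, and male control 4 stood above the other controls. Ptbp1 fell by 0.65 on the log2 scale (SE 0.17, edgeR adjusted p = 0.00801). Its neuronal paralogue Ptbp2 (ENSMUSG00000028134) had 56.6, 60.8, 52.2, 61.1 and 58.8 CPM in male EAE mice, against 52.3, 56.3, 45.4 and 43.0 CPM in male control mice. These groups overlapped, and the log2 fold change of 0.23 ± 0.09 SE lay just outside the fold threshold (edgeR adjusted p = 0.0551). The sign of Ptbp2 was turned by the GC offset, to -0.10. The log2 ratio of Ptbp2 to Ptbp1 CPM was 1.69 to 2.43 in male EAE mice, against 0.61 to 1.59 in male control mice, and the ranges did not overlap. In females the ratio was 1.80 to 2.29 in EAE and 0.94 to 1.996 in control mice, which overlapped. Astrocytes express Ptbp1, and of the 12 astrocyte markers 8 were called lower and 0 higher in males (S100b -1.31, Aldoc -1.05 and Sox9 -0.76 among them). Their part in the Ptbp1 result was not tested.

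The 11 Srsf genes were called in both directions, 2 higher and 3 lower, with a median log2 fold change of -0.12. Srsf9 (ENSMUSG00000029538, chr5:115327177-115333080, plus strand), a small SR protein, had 37.8, 32.2, 41.3, 30.3 and 37.2 CPM in male EAE mice, against 53.5, 44.7, 52.6 and 75.2 CPM in male control mice. The groups did not overlap, and Srsf9 fell by 0.66 on the log2 scale (SE 0.14, edgeR adjusted p = 0.00542), the lowest value of all 45 members. Srsf4 (ENSMUSG00000028911), with a long RS domain, had 152, 123, 170.5, 146 and 131 CPM in male EAE mice, against 203, 164, 197 and 254 CPM in male control mice. Male EAE 3 and male control 2 overlapped, and the log2 fold change was -0.50 ± 0.13 SE (edgeR adjusted p = 0.00832). Srsf11 was also called lower with overlap (-0.38, edgeR adjusted p = 0.0482), but not without male control 4.

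Srsf6 and Srsf12 were the SR genes that rose. Srsf6 (ENSMUSG00000016921, chr2:162931528-162937121, plus strand) had 63.7, 67.0, 69.2, 71.8 and 68.8 CPM in male EAE mice, against 56.3, 55.6, 52.9 and 59.5 CPM in male control mice. The log2 fold change was 0.28 ± 0.07 SE (edgeR adjusted p = 0.00751), with no overlap between the groups. Srsf12 (ENSMUSG00000054679), known from human cells as an SR-related repressor of splicing, had 22.6, 21.03, 20.7, 23.5 and 22.8 CPM in male EAE mice, against 17.01, 18.3, 14.9 and 11.6 CPM in male control mice. All male EAE libraries were above all male control libraries, and the log2 fold change was 0.52 ± 0.16 SE (edgeR adjusted p = 0.0198). Srsf1, the founding SR protein, and Srsf2, a component of nuclear speckles, passed the FDR but not the fold threshold, Srsf1 at 0.19 (edgeR adjusted p = 0.0409) and Srsf2 at -0.19 (edgeR adjusted p = 0.0548). The sign of Srsf1 was turned by the GC offset, to -0.03. The summed level of the 11 genes was 655 to 727 CPM in male EAE and 694 to 888 CPM in male control mice, with overlap.

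The 20 Hnrnp genes included 4 called higher and 3 called lower in males, with a median log2 fold change of 0.07. Hnrnpll (ENSMUSG00000024095, chr17:80029487-80062334, minus strand), known for its control of Ptprc exons in T cells, had 26.6, 30.0, 21.9, 30.3 and 31.5 CPM in male EAE mice, against 20.5, 21.3, 19.3 and 15.1 CPM in male control mice. The groups did not overlap, and the log2 fold change of 0.56 ± 0.13 SE was the highest of all members (edgeR adjusted p = 0.00613). Of the 11 T and B cell markers with values, 4 were called higher in males (36.4%, beside 19.2% of all genes). These were Igkc, and Cd3e, Cd3g and Cd8a with means of only 0.44, 0.11 and 0.39 CPM in male EAE mice. The summed level of the 11 was 92.8 to 188 CPM in male EAE and 67.4 to 103 CPM in male control mice. Ighm, which was not called, had means of 66.5 and 61.9 CPM in these groups. Male EAE 3, with 93.0 CPM of Igkc, had the lowest Hnrnpll of the male EAE mice. The part of these markers in the Hnrnpll result was not tested. Hnrnph2 (ENSMUSG00000045427, chrX:134601179-134607060, plus strand), an X-linked protein of the G-tract-binding H group, had 57.2, 61.8, 50.2, 60.4 and 55.2 CPM in male EAE mice, against 46.8, 44.6, 40.8 and 39.7 CPM in male control mice. It rose without overlap, by a log2 fold change of 0.41 ± 0.09 SE (edgeR adjusted p = 0.00548). Its near copy Hnrnph1 was not called and ranged over 52.4 to 60.4 CPM in male EAE mice and 47.6 to 60.7 CPM in male control mice. How reads shared by such copies were counted is not given in the sources used here, so the levels of Hnrnph1, Hnrnph2 and of Hnrnpa1, which has many processed copies, are uncertain.

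Hnrnpd and Hnrnpdl, neighbouring genes on chromosome 5 that encode related AU-rich element binding proteins, both rose. Hnrnpd (ENSMUSG00000000568) had 114, 121, 99.8, 117 and 104 CPM in male EAE mice, against 87.1, 96.1, 84.5 and 93.3 CPM in male control mice (log2 fold change 0.30 ± 0.10 SE, edgeR adjusted p = 0.0270). Hnrnpdl (ENSMUSG00000029328) had 118, 134, 117, 122 and 119.8 CPM in male EAE mice, against 106, 117, 98.1 and 82.3 CPM in male control mice (log2 fold change 0.28 ± 0.10 SE, edgeR adjusted p = 0.0444). Neither gene overlapped between the groups, although Hnrnpdl came close at male EAE 3 and male control 2 and was not called without male control 4. The members called lower were Hnrnph3 (-0.52), Hnrnpm (-0.27) and Hnrnpab (-0.26), each with overlap. The edgeR adjusted p was 0.0240 for Hnrnph3, 0.0339 for Hnrnpm and 0.0363 for Hnrnpab, and without male control 4 none of the 3 was called. Just outside the FDR were Hnrnpa1 (0.29, edgeR adjusted p = 0.103) and Hnrnpc (-0.26, edgeR adjusted p = 0.132). Hnrnpu, a nuclear scaffold protein, had 161, 160.1, 176, 172 and 173 CPM in male EAE mice, against 189, 194, 179 and 224 CPM in male control mice. It was lower in every male EAE library but inside the fold threshold, at -0.22. The summed level of the 20 genes was 2144 to 2239 CPM in male EAE and 2110 to 2466 CPM in male control mice.

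The promoters of 4 genes that changed without overlap in males are shown because 2 of them, Srsf9 and Ptbp1, fell while the others, Srsf6 and Hnrnph2, rose. Each run is the 250 bases before the RefSeq start (GRCm38.p6), 5′ to 3′ on the coding strand, with GC boxes (GGGCGG) and CCAAT boxes (CCAAT) on either strand in capitals. RefSeq promoters were matched for 41 of the 45 members.
Srsf9, chr5:115326927-115327176, plus strand: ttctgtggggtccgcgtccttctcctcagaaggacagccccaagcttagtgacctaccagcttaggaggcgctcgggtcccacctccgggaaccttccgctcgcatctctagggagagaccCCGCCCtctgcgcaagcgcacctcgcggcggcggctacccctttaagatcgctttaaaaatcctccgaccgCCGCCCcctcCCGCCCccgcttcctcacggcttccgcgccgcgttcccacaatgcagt
Ptbp1, chr10:79854182-79854431, plus strand: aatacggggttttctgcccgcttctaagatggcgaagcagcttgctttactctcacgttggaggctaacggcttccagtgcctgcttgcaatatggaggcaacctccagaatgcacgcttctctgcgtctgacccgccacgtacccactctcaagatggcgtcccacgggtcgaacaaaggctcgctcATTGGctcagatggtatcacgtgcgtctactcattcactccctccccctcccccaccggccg
Srsf6, chr2:162931258-162931507, plus strand: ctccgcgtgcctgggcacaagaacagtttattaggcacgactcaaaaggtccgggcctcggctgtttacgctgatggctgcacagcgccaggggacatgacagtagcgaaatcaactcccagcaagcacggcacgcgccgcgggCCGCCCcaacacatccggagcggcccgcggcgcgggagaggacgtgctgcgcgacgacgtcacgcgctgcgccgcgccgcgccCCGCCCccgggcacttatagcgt
Hnrnph2, chrX:134600929-134601178, plus strand: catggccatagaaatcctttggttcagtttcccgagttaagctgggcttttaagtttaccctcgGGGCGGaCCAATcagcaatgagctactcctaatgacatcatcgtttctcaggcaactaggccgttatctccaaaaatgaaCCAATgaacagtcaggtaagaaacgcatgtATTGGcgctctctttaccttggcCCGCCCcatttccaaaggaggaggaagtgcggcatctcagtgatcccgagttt

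The Srsf9 window held 3 GC boxes and the Srsf6 window 2, with no CCAAT box in either. Ptbp1 had 1 CCAAT box and no GC box, and Hnrnph2 had 2 GC boxes and 3 CCAAT boxes. None of the 4 windows contained TATAAA, which 12.4% of all 32851 RefSeq promoters of this length do, and GGGCGG was found in 32.7% and CCAAT in 33.8% of them. The number of CG pairs was 25 in Srsf9, 17 in Ptbp1, 35 in Srsf6 and 10 in Hnrnph2, above the median of 6 over all promoters. GC boxes and CCAAT boxes were thus present both in genes that fell and in genes that rose.

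In female mice 0 of the 45 members were called, against 0.0584% of all genes and 0.0664% of those with a mean log2 CPM above 1. At an unadjusted p under 0.05 there were 11 of the 45 members (19.8% of all genes). Of the 13558 genes with a mean log2 CPM above 1, 3604 were under it. DESeq2 called 4 members, beside 6.09% of all genes, and limma voom 0. Groups did not overlap for 6 members that were higher in EAE (Hnrnpa0, Hnrnph2, Hnrnpll, Hnrnpul2, Srsf1 and Srsf6) and for 1 that was lower (Rbfox3), against 3.99% and 3.44% of all genes (7.43% in either direction, and 9.12% of those with a mean log2 CPM above 1). The smallest unadjusted p was that of Srsf6, which had 66.3, 75.8, 70.3 and 75.5 CPM in female EAE mice, against 62.6, 56.3, 57.9 and 61.0 CPM in female control mice. Its log2 fold change was 0.28 ± 0.07 SE, with an edgeR adjusted p of 0.166. Hnrnph2 had 49.5, 63.0, 55.9 and 62.0 CPM in female EAE mice, against 47.6, 41.0, 46.1 and 48.3 CPM in female control mice (log2 fold change 0.33 ± 0.09 SE, edgeR adjusted p = 0.171). Hnrnpll had 21.8, 28.7, 28.6 and 24.1 CPM in female EAE mice, against 20.2, 15.4, 19.5 and 20.6 CPM in female control mice (log2 fold change 0.45 ± 0.14 SE, edgeR adjusted p = 0.173). Every female EAE library thus exceeded every female control library for each of these 3 genes, but none passed the FDR.

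Rbfox3 in females had 1144, 1109, 774 and 1159.9 CPM in female EAE mice, against 1196, 1540.2, 1570.2 and 1311 CPM in female control mice. All female EAE libraries were below all female control libraries, most of all female EAE 4, and the log2 fold change was -0.42 ± 0.13 SE (edgeR adjusted p = 0.176). The 4 members that DESeq2 called were these same genes, Srsf6, Hnrnph2 and Hnrnpll higher and Rbfox3 lower. Ptbp1 had 15.1, 14.1, 11.8 and 14.2 CPM in female EAE mice, against 13.5, 23.6, 19.0 and 13.2 CPM in female control mice, with overlap and a log2 fold change of -0.33 ± 0.18 SE. Without female control 2 its value was -0.14. Srsf9 (-0.41 ± 0.15 SE), Srrm4 (0.34 ± 0.15 SE) and Nova1 (0.18 ± 0.10 SE) also overlapped and were not called.

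In females the sign was unchanged for all 19 members that males called, and for 18 of them the female value was closer to 0. Of all 45 members, 41 had the same sign and 36 a female value closer to 0. The 19 were picked by their male values, and the same counts over all genes were not made. The difference between the sexes in the response to EAE was tested in the same fit and passed the FDR for 0 of 45 members, and 0 had an unadjusted p under 0.05, against 4.19% of all genes. DESeq2 and limma voom also called 0 members. By edgeR's quasi-likelihood fit over all genes the smallest unadjusted p was 0.0738, that of Hnrnpa0, an abundant member of the A/B group, followed by Celf5 at 0.119 and Hnrnpab at 0.137. Hnrnpa0 had log2 fold changes of -0.07 ± 0.08 SE in males and 0.16 ± 0.09 SE in females, a difference of -0.23 ± 0.12 SE. The difference was 0.22 ± 0.13 SE for Celf5 and -0.21 ± 0.13 SE for Hnrnpab. The calls in males and their absence in females therefore do not show that the members responded differently in the sexes.

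The rest of the splicing machinery was counted in 3 lists. In the core spliceosome, 35 of 66 measured genes were called lower and 3 higher in males, with a median log2 fold change of -0.29, beside the 29.1% lower and 24.5% higher over all genes with a mean log2 CPM above 1. Those that fell included Sm and Sm-like ring proteins (Snrpe -1.07, Snrpf -0.86, Lsm3 -0.87 and Lsm4 -0.85) and proteins that recognise the branch and 3′ splice sites (Phf5a -0.79 and U2af1 -0.77). The 3 that were higher were Prpf8 (0.33), Snrnp200 (0.32) and Aqr (0.31), of which the first and second belong to the U5 particle. This count of 3 was 1 without male control 1 and 0 without male control 4, with the gene length offset or with 1 surrogate variable, which also left 0 lower. In females 0 of the 66 were called, with a median of -0.20. At an unadjusted p under 0.05 by edgeR there were 11 of the 66 in females. Beside them stand 19.8% of all genes and 3604 of the 13558 with a mean log2 CPM above 1. Of 18 SR kinases and SR-related factors, 1 was called higher in males, the speckle protein Srrm2 (0.68), and 4 lower, Acin1 (-0.61), Srek1 (-0.56), Clk3 (-0.40) and Pnn (-0.34). Of 41 other RNA-binding splicing regulators, 10 were higher and 12 lower in males. The third Ptbp paralogue Ptbp3 (0.62), the nuclear matrix protein Matr3 (0.61), the muscleblind protein Mbnl2 (0.54) and Elavl2 (0.45) were among those that rose. Rbm38 (-1.04), Rbm25 (-0.93), Rbm39 (-0.62) and the neuronal Elavl3 (-0.50) were among those that fell.

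**Figure D5:**
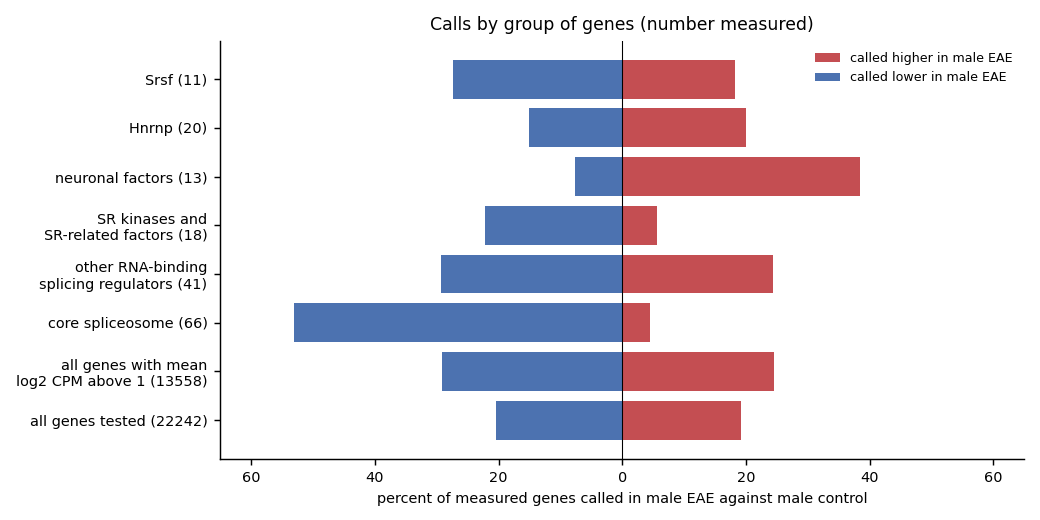
Percent of measured genes called higher (right) and lower (left) in male EAE than in male control mice, for families of splicing regulators, other lists of the splicing machinery and all genes; the number measured stands in brackets. In the core spliceosome 53.0% were lower and 4.55% higher, in the neuronal factors 7.69% lower and 38.5% higher, and over all genes 20.4% lower and 19.2% higher.

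Exon length and GC content differed between the members called higher and lower. The 11 members called higher had a median exon length of 7.35 kb and a median GC content of 44.9%, and the 8 called lower had 4.15 kb and 49.6%. The 26 members not called lay between these in length (5.90 kb) but below both in GC content (43.3%). Over all genes the medians were 5.62 kb and 46.7% for those called higher, 2.68 kb and 52.4% for those called lower, and 3.0025 kb and 49.95% for those not called. Levels of many members moved with the first principal component over the 17 libraries, on which male EAE mice lay between 6.39 and 39.7 and male control mice between -59.9 and -1.84. The members were among the 13558 genes of this component, and the correlations were not made over all genes. Hnrnpll, Srrm4, Nova1, Srsf9, Rbfox3 and Srsf4 were called between these male groups, so a strong correlation was likely in advance. The points of each correlation share a library and its composition: Pearson's r was 0.97 for Hnrnpll, 0.95 for Srrm4 and 0.92 for Nova1, and -0.95 for Srsf9, -0.94 for Rbfox3 and -0.94 for Srsf4. Hnrnpa0, Hnrnph1 and Celf3, with r between -0.06 and 0.06, did not move with it. Whether length, GC content or this component accounts for a change was not tested. Under 28 alternatives other than the surrogate variable, 6 of the 19 calls were kept in the same direction in all: Hnrnpll and Srsf12 higher, and Ptbp1, Rbfox3, Srsf4 and Srsf9 lower. The surrogate variable left none of the 19 called and turned the sign of 7, Srsf12 among them (-0.011). Another 4, Hnrnpd, Hnrnph2, Nova1 and Srsf6, were kept in each of the 17 fits that left out 1 library. The other 9 calls were each lost without at least 1 library. Without male control 4 the log2 fold changes of 8 of them no longer passed both thresholds (Srrm4 0.26, Rbfox2 0.24, Celf5 0.23, Hnrnpdl 0.21, Hnrnpab -0.16, Hnrnpm -0.18, Srsf11 -0.24 and Hnrnph3 -0.26). Without male control 1 the calls of Srrm4 (0.37), Rbfox2 (0.25), Hnrnpab (-0.23) and Hnrnpm (-0.25) were lost. Among the EAE libraries, calls were lost without male EAE 2 (Celf1 0.22, Hnrnpdl 0.23 and Srsf11 -0.33), male EAE 4 (Celf1 0.24, Celf5 0.24, Srrm4 0.34 and Hnrnpab -0.24) and male EAE 5 (Celf1 0.22 and Rbfox2 0.22). Leaving out female control 3, which changes only the shared fit, moved Hnrnpab to -0.24.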

How the data were processed

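RNA of HA-tagged ribosomes was enriched for mRNA and made into stranded libraries (KAPA), and read as paired ends. The authors demultiplexed the reads (bcl2fastq 2.17), checked them with FastQC, trimmed them with Trimmomatic and used QuasR for alignment to mm10 and for counts of each Ensembl gene. The deposited counts of the 17 libraries were used without rounding or rescaling. The treatment of strand and of reads with several positions, and the annotation release, are not given in the sources used here. No library was pooled, and each title names 1 replicate of 1 group per the labels.

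Symbols, gene models, exon lengths and GC content came from GENCODE M21 on GRCm38, the same assembly as mm10, which named 37607 of the 39017 IDs. Promoters came from RefSeq (GRCm38.p6). As in the study, genes were left out where most libraries had under 1 count. Groups were taken from the sample titles. The remaining 22242 genes were fitted with edgeR 4.0.16 in R 4.3.3 (TMM, quasi-likelihood, 1 mean per group, 13 residual degrees of freedom). Contrasts were EAE against control within each sex and the difference of the 2. P-values were adjusted over all genes by the Benjamini-Hochberg method, and a call required an FDR under 0.1 and a log2 fold change beyond 0.25. The step was run on simulated counts with known changes, drawn independently for each gene. They held no shared component, whereas the first principal component of the real libraries held 63.5% of the variance. The simulation therefore does not bear on how that component affects the calls. At 66155142 counts or more per library all members had many reads, so that spread between mice and not counting limited the precision.

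The members, their 2 classes, the 3 lists of other splicing genes and the marker lists were chosen with earlier results of these data known, and no set test was run. Listed genes with no value were left out of the counts. Named with values were the 13 neuronal factors and Ptbp1, up to 5 genes a direction from each of the Srsf and Hnrnp families that were called without overlap in males, the 3 smallest p in females and for the difference, and members just inside and outside a call. Srsf4, Srsf1 and some genes of the other lists were named after their values were seen. Alternatives were DESeq2's size factors, DESeq2 1.42.0, limma voom 3.58.1, other filters, each sex alone, a replicate block, 1 surrogate variable (sva 3.50.0), offsets for gene length and GC content, an FDR of 0.05, and fits without libraries.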

Additional observations from a re-analysis of the deposited data

Results flagged for a closer look

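Each member was screened in each group for a library far from the others (Dixon's criterion for 4 or 5 libraries), which chance meets in about 1 in 20 groups, and 9 of the 180 groups met it. Rbfox3 in female EAE 4 had 774 CPM, while the other 3 libraries of that group had 1109 to 1159.9 CPM. Hnrnpu in the same library had 163 CPM, against 186 to 189 CPM. Ptbp1 in male control 4 had 28.2 CPM, against 18.7 to 19.5 CPM in the other male controls. In female control 2, Celf5 had 355 CPM, against 449 to 466 CPM, and Srsf12 12.4 CPM, where the other female controls had at least 19.96 CPM. Hnrnpdl in male EAE 2 had 134 CPM, against 117 to 122 CPM, and Hnrnpul2 in female EAE 3 had 276 CPM, against 254 to 258 CPM. Hnrnpl in female control 1 had 111 CPM, against 98.6 to 101 CPM, and Hnrnpr in female control 4 had 26.1 CPM, against 31.2 CPM in each of the others.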

How the results depend on the processing

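In males, members called higher and lower stayed within 1.5 times the counts of 11 and 8 with RLE size factors, DESeq2, limma voom, both other filters, each sex alone and an FDR of 0.05, although only genes with a mean log2 CPM above 1 gave 13 higher and 6 lower. The gene length offset gave 6 higher and 14 lower members, 11 general factors lower, 0 neuronal factors higher and 3 lower, and 0 core spliceosome genes higher. The GC offset gave 6 members higher, 3 general factors higher and 11 lower, and 3 neuronal factors higher. The fit without male control 4 and female control 2 together called 29% of all genes in males. In it 4 members were lower (3 general), 2 neuronal factors higher and 0 core spliceosome genes higher. The surrogate variable gave 0 for every one of these counts, core spliceosome genes lower included. DESeq2 called 4 members in females, beside 6.09% of all genes, where the fit as described called 0.0584%. Leaving out 1 library gave 8 to 13 members higher and 4 to 12 lower, 5 to 7 general factors higher and 3 to 10 lower, 2 to 6 neuronal factors higher and 1 to 2 lower, and core spliceosome genes 0 to 4 higher (0 without male control 4, 1 without male control 1) and 25 to 37 lower. Of all genes, these fits called from 26.3% (without male control 4) to 43.5% (without male control 2) in males. In females and for the difference, leaving out 1 library gave 0 members. The cause was not tested.

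Deviations of same-numbered EAE and control libraries from their group means correlated at 0.00, 0.13, -0.27 and -0.55 in males and -0.38, 0.37 and 0.53 in females. The best-matching control carried the same number for male EAE 2, female EAE 3 and female EAE 4, and another number for the rest. With so few libraries around each mean, this check cannot decide whether replicate numbers pair the mice. With the replicate number as a block, 10 members were higher and 7 lower in males, beside 32.2% of all genes called. In that fit 3 neuronal factors and 1 core spliceosome gene were higher, and 2 members in females had an unadjusted p under 0.05.

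Some signs reversed, among them those of 7 members called in males, all with the surrogate variable: Hnrnph3, Hnrnpab, Rbfox2, Srsf12, Srsf11, Hnrnpm and Srrm4. In males the reversed values were Celf2 (-0.24) and Hnrnpa0 (0.091) with the gene length offset, Hnrnpa0 (0.085), Rbfox1 (-0.0073), Srsf1 (-0.029), Ptbp2 (-0.10), Celf3 (0.14) and Nova2 (0.076) with the GC offset, and Hnrnph3 (0.15), Hnrnpab (0.022), Celf4 (0.063), Rbfox2 (-0.011), Srsf12 (-0.011), Srsf11 (0.11), Hnrnpm (0.0088), Hnrnpc (0.24) and Srrm4 (-0.14) with the surrogate variable. Celf3 was 0.0043 with only genes of mean log2 CPM above 1 and -0.061 to 0.036 over the fits that left out 1 library. In females they were Celf2 (-0.072), Hnrnpab (0.0059), Rbfox2 (-0.0027) and Celf5 (-0.0026) with the gene length offset, Celf2 (-0.048), Rbfox1 (-0.017), Celf3 (0.089), Nova2 (0.059) and Celf6 (0.059) with the GC offset, and Hnrnpab (0.085), Rbfox2 (-0.056) and Celf5 (-0.049) with the surrogate variable. Celf5 in females was -0.061 with the replicate block and -0.033 without male control 4 and female control 2. Over the fits that left out 1 library the female values were -0.075 to 0.017 for Celf3, -0.10 to 0.019 for Nova2, -0.013 to 0.13 for Rbfox2 and -0.031 to 0.091 for Celf5.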
